A study of Mus musculus with 4 samples.

Results

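The endosomal Toll-like receptors (TLRs) and the adaptors that serve them were examined in mouse splenic cDC2, conventional dendritic cells that carry Sirpa and present antigen mainly to CD4 T cells. The set was given as 10 gene symbols, namely the receptor genes Tlr3, Tlr7, Tlr8, Tlr9, Tlr11, Tlr12 and Tlr13 and the adaptor genes Unc93b1, Cnpy3 and Ticam1. A probe set annotated to 1 of these symbols alone was present for 9 of the 10, with 1 probe set per gene, among 19938 genes measured in this way. Tlr11 had none and was not analysed here. Of the 9 measured genes, 8 lay above the filter on dim genes (a mean log2 intensity of 6.77) and were tested, among 11963 genes in all.

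Gene expression was measured on Affymetrix arrays, with 2 arrays of WT cDC2 and 2 of Id2 KO cDC2. All cells came from the spleens of chimeric mice with the Zbtb46-GFP reporter, in which green fluorescent protein reports expression of the conventional dendritic cell factor Zbtb46; the labels name the reporter for both groups, and the groups differ in the Id2 knockout. The part of Id2 that was deleted, the age of the mice, the cells that remained from the hosts and whether the replicates came from separate mice were not stated. The p-values thus rest on no more than the spread among 4 arrays, which the fit pooled in part over all tested genes. Part of that spread may be technical. A sentence of the series' design text names bone marrow, whereas the sample labels name the spleen.

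Most TLRs of this group are held in endosomes and lysosomes, where they meet nucleic acids taken up from microbes or dying cells. Unc93b1 carries them there from the endoplasmic reticulum, Cnpy3 acts with the chaperone encoded by Hsp90b1 to fold several TLRs, and proteases of the endosome cut the receptors into their active form. Tlr3 binds double-stranded RNA and signals through Ticam1 (TRIF), while the other receptors signal through Myd88, and both routes lead to interferon regulatory factors and NF-κB. In mouse spleen, Tlr3, Tlr11 and Tlr12 are known as receptors of cDC1 in particular, Tlr7 of cDC2, plasmacytoid dendritic cells (pDC) and B cells, and Tlr9 of most dendritic cells and B cells.

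Id2 keeps E proteins from DNA, and E proteins bind the E-box, the letters CANNTG, which read the same on both strands. The 250 bases before the RefSeq start of each gene (GRCm38.p6) were therefore searched for these letters, and 8 of the 10 genes had a sequence; Tlr7 and Unc93b1 did not. The windows of Tlr3, Tlr9 and Tlr13 are shown because these were the genes whose differences had the smallest p-values, with each E-box in capitals. The Tlr3 window lies on chromosome 8 at chr8:45410381-45410630 (minus strand), that of Tlr9 at chr9:106222348-106222597 (plus strand) and that of Tlr13 at chrX:106143025-106143274 (plus strand), and each is written 5′ to 3′ along the gene's strand.
Tlr3: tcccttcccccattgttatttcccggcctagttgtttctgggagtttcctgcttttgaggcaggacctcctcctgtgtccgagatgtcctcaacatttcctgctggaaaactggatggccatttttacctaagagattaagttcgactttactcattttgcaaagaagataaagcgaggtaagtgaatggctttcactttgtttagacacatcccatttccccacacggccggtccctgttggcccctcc
Tlr9: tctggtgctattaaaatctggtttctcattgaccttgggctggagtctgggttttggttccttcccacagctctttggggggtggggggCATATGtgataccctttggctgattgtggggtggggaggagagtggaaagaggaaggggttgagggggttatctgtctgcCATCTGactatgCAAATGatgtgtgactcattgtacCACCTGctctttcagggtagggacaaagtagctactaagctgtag
Tlr13: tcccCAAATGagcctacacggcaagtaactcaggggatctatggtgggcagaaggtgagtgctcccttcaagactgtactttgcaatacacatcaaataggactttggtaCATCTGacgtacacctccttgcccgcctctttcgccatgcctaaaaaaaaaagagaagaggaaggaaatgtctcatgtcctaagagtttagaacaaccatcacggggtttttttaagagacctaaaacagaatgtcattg

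The Tlr3 window held no E-box, as did those of Tlr8 and Tlr12. The Tlr9 window held 4, beginning 161, 81, 69 and 45 bases before the start, and the last of these, CACCTG, is CAGGTG on the other strand. The Tlr13 window held 2, beginning 246 and 140 bases before the start, and those of Tlr11, Cnpy3 and Ticam1 held 1 each. Among 32851 promoter windows of this length, 66.2% held at least 1 E-box, 31.8% at least 2 and 3.84% at least 4, and 17.2% held CAGGTG on either strand. A match of letters is a description of the window and does not show binding. The windows shown were chosen by the values, and Tlr9 and Tlr13 did not pass the test described below. A link between E-boxes and differences was not tested.

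The labels were set against the marker genes first. Id2, measured by a single probe set, was at log2 9.14 and 9.08 in WT and at 8.71 and 8.97 in Id2 KO, a difference of -0.27 that did not pass (limma, adjusted p = 0.172). The probe set may lie outside the deleted part, in which case it checks nothing, and every direction below rests on the labels. Among cDC2 markers, Itgax was at 12.85 ± 0.01 and 12.83 ± 0.03 and Sirpa at 12.40 ± 0.02 and 12.17 ± 0.04 (log2, WT and Id2 KO, SD, n = 2 each). Other markers of the list fell, among them Zbtb46, the gene of the reporter (-1.02, adjusted p = 0.000135), the integrin gene Itgam (10.77 and 10.78 in WT against 10.06 and 9.49 in Id2 KO), the lectin gene Clec4a3 (-0.90) and the coreceptor gene Cd4 (-0.84), named after their values were seen. How many copies of the reporter each group carried was not examined, and the part of the reporter in the Zbtb46 value was not tested. Of 16 tested cDC2 markers 7 were lower, 2 higher and 7 did not pass, with a median of -0.33. The 2 that rose were Esam (0.53) and Dtx1 (0.31). Xist, a long RNA made from the inactive X chromosome of females, was at 11.96 on both WT arrays and at 6.67 and 6.68 on the Id2 KO arrays, and Y-linked Kdm5d was at 5.63 ± 0.14 and 8.29 ± 0.29. The knockout and the sex-linked expression therefore cannot be told apart, which bears most directly on the X-linked members Tlr7, Tlr8 and Tlr13. The same limit holds for Cxcr3, an X-linked gene among the cDC1 markers named below.

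Of the 8 tested genes, 1 was lower in Id2 KO cDC2, namely Tlr3, none was higher and 7 did not pass the test (limma with Benjamini-Hochberg adjustment over all tested genes, threshold 0.05). Over all tested genes, 8.04% passed in either direction, 5.53% higher and 2.52% lower. The median difference of the 8 genes was -0.01 on the log2 scale, beside 0.01 over all tested genes. The groups did not overlap for 5 of the 8 genes, beside 50.7% of all tested genes, and an unadjusted p under 0.05 was reached by 3, Tlr3, Tlr9 and Tlr13, beside 20.7%. Counts among 8 genes are too small to be set apart from the shares over all genes, and the result is that of Tlr3 alone.

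**Figure D1:**
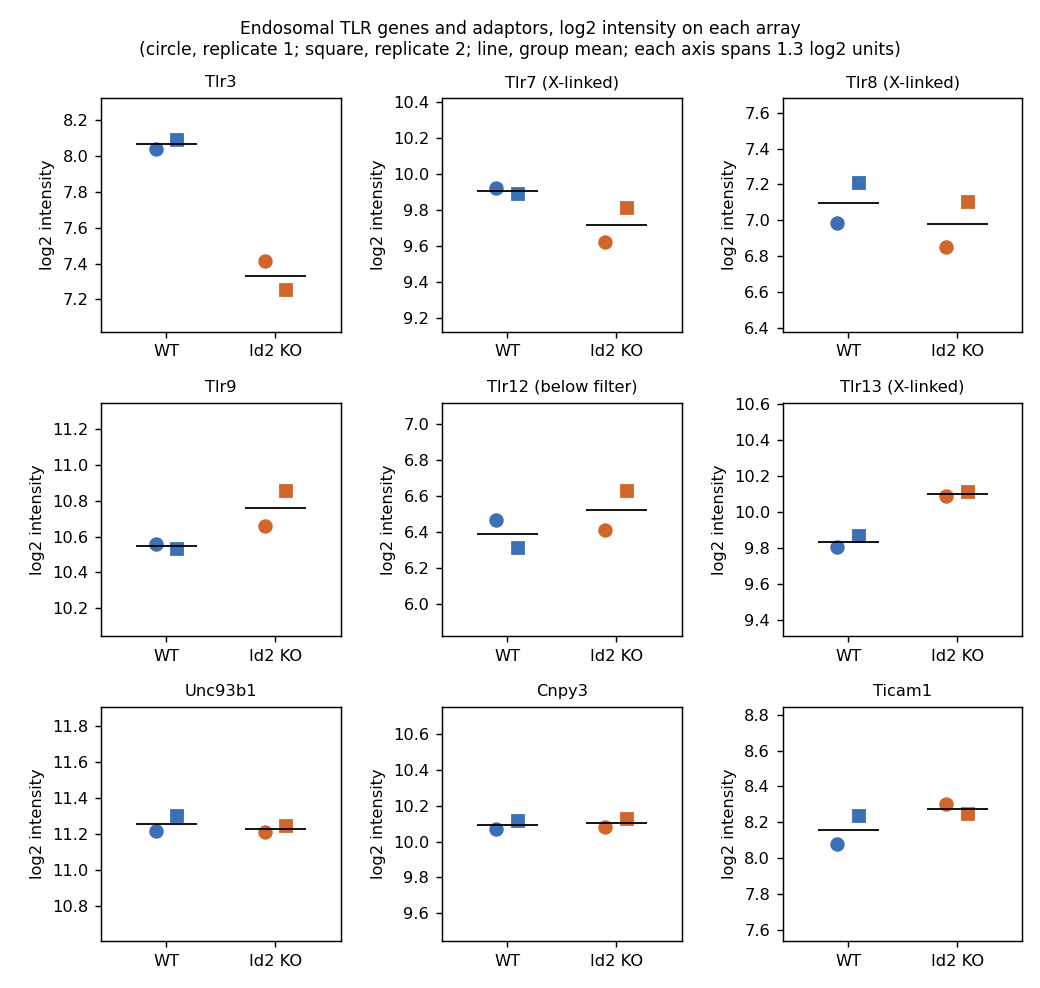
Log2 intensity of the 9 measured genes on each of the 4 arrays, WT in blue and Id2 KO in orange, with circles for replicate 1, squares for replicate 2 and a line at the group mean. Tlr3 was at 8.04 and 8.09 in WT and at 7.41 and 7.25 in Id2 KO, and the other panels show smaller gaps between the groups.

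Tlr3, the receptor for double-stranded RNA, was at log2 8.04 and 8.09 on the WT arrays and at 7.41 and 7.25 on the Id2 KO arrays, which correspond to intensities of 263.2 and 272.3 against 170.3 and 152.3. Both Id2 KO arrays lay below both WT arrays, and the gap between the groups was larger than the gap within either, 0.05 in WT and 0.16 in Id2 KO. The difference was -0.73 (95% interval -0.93 to -0.53, n = 2 per group), 1.66-fold lower with an interval from 1.45-fold to 1.91-fold (limma, adjusted p = 0.00103). Of the 11963 tested genes, 79 had a lower difference than Tlr3, which is 0.66%. Tlr3 passed with each array left out, with differences between -0.81 and -0.65.

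Tlr3 is known from cDC1 and macrophages as well as cDC2, and in sorted cells fewer cells of a type and less RNA per cell cannot be told apart. Of 14 markers of cDC1, 10 were tested, 2 fell and 8 did not pass, with a median difference of -0.09 over the 10. A lower mean in Id2 KO was found for 11 of the 14, beside 10817 of all 19938 measured genes. The 2 that fell were the chemokine receptor gene Cxcr3 (-0.43, adjusted p = 0.0124) and the surface glycoprotein gene Cd24a (-0.50, adjusted p = 0.0262); without WT replicate 2 neither passed (adjusted p = 0.0941 and 0.161), Cxcr3 did not without WT replicate 1 (adjusted p = 0.0554) and Cd24a did not without Id2 KO replicate 2 (adjusted p = 0.0723) or with the replicate number as a block (adjusted p = 0.0756). Other genes of this list were looked up after the values were seen. The surface receptor genes Xcr1 and Clec9a lay near or below the filter level on all arrays. The chemokine receptor gene Xcr1 was at 6.80 and 6.86 in WT against 6.51 and 6.50 in Id2 KO, and the lectin receptor gene Clec9a at 6.44 and 6.66 against 6.08 and 6.19. Batf3 (difference 0.05), Irf8 (0.14) and Wdfy4 (-0.05) lay well above the filter level and did not pass. The summed intensity of the 14 cDC1 markers was 11824 and 11987 in WT against 11099 and 11182 in Id2 KO. This sum was weighted towards bright genes such as Wdfy4, and Xcr1 and Clec9a added little to it. Red pulp macrophage markers had a lower mean for 14 of 14 measured genes. The test was passed by 7 of 11, each lower, beside 2.52% of all tested genes that were lower. The tested macrophage markers had a median of -0.48. Summed intensities were 4012 and 4529 in WT against 2977 and 3004 in Id2 KO. The part of these cell types in the Tlr3 result was not tested.

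Tlr7, the X-linked receptor for single-stranded RNA, was at log2 9.93 and 9.89 in WT and at 9.62 and 9.81 in Id2 KO. The groups did not overlap, but the Id2 KO arrays lay 0.19 apart, as far as the group means, and the difference of -0.19 (95% interval -0.40 to 0.02) did not pass (limma, adjusted p = 0.281). Tlr8, the neighbour of Tlr7 on the X chromosome and a sensor of RNA fragments, was at 6.98 and 7.21 in WT and at 6.85 and 7.10 in Id2 KO. Here the groups overlapped and both lay close to the filter level, with a difference of -0.12 (-0.37 to 0.14; adjusted p = 0.632).

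Tlr13, the third X-linked receptor and a sensor of bacterial ribosomal RNA, was at log2 9.80 and 9.87 in WT and at 10.09 and 10.11 in Id2 KO. Both Id2 KO arrays lay above both WT arrays and the arrays within a group lay close together, 0.06 and 0.02 apart. The difference of 0.27 (95% interval 0.09 to 0.45 before adjustment) did not pass the adjustment over all genes (adjusted p = 0.0818), and its adjusted p ranged from 0.0648 to 0.415 over 12 alternative ways of processing. Among 330 tested X-linked genes 7.27% passed, 14 higher and 10 lower, and 3 of the 6 tested genes of the list of sex-linked markers were lower in Id2 KO, namely Xist and the X-linked genes Kdm6a (-0.56) and Ddx3x (-0.31), which are known to escape X inactivation. The 3 X-linked receptors had point estimates on both sides of 0, and none passed.

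Tlr9, the receptor for DNA with unmethylated CpG, was at log2 10.56 and 10.53 in WT and at 10.66 and 10.86 in Id2 KO. Both Id2 KO arrays lay above both WT arrays, and the 2 Id2 KO arrays were 0.20 apart, about as far as the group means. The difference was 0.21 (95% interval 0.01 to 0.42 before adjustment) and did not pass (adjusted p = 0.232). Some markers of pDC and most of B cells, which also use Tlr9 and Tlr7, were higher in the same arrays. Of 13 tested pDC markers 5 were higher, none was lower and 8 did not pass, with a median of 0.14 over the 13. Among the 14 measured, 8 had a higher and 6 a lower mean in Id2 KO, beside 9121 and 10817 of all 19938 measured genes. Summed intensities over the 14 genes were 6488 and 6655 in WT against 7003 and 6786 in Id2 KO. The 5 were the lymphoid surface marker gene Ly6d (1.31), the signalling adaptor gene Blnk (1.20), Spib (1.07), an Ets family factor, the surface lectin gene Siglech (0.56) and the endocytosis gene Pacsin1 (0.34). Those that did not pass included the pDC surface gene Bst2 (0.04) and the E protein gene Tcf4 (-0.07), named after their values were seen. Of 13 tested B cell markers 10 were higher and 1 lower, with a median of 0.69 and summed intensities over 14 genes of 3074 and 3080 in WT against 4156 and 4587 in Id2 KO. Whether the 5 genes of the pDC list rose in pDC or in B cells was not tested, nor was the part of these cells in the Tlr9 values.

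Tlr12, which binds profilin of Toxoplasma together with Tlr11, was at log2 6.46 and 6.31 in WT and at 6.41 and 6.63 in Id2 KO, so the groups overlapped. All 4 values lay below the filter level of 6.77 and the gene was not tested with the others. Without a filter its difference was 0.13 (limma, adjusted p = 0.641).

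**Figure D2:**
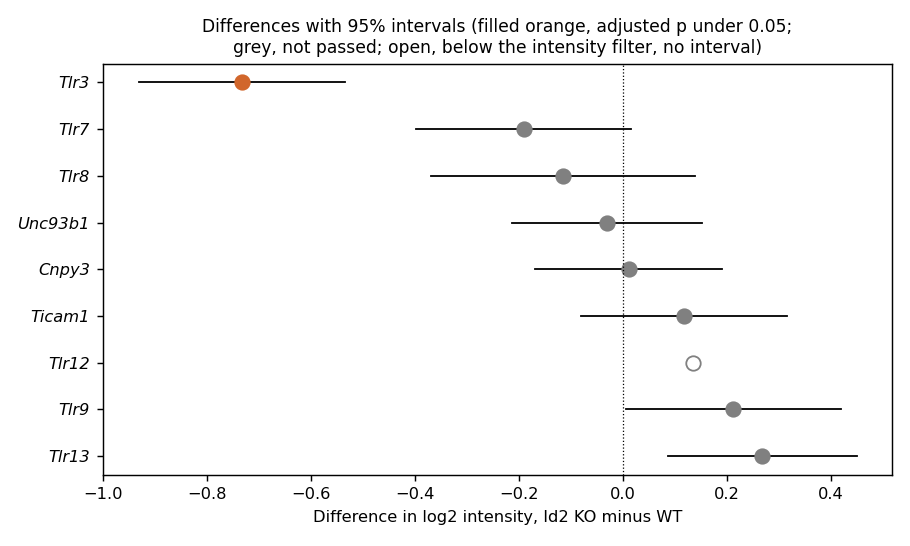
Difference in log2 intensity, Id2 KO minus WT, for the 9 measured genes, with the 95% interval from the limma fit where the gene was tested. Tlr3 at -0.73 is the single filled orange point, and the differences of the other 8 lie between -0.19 and 0.27.

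The smallest differences were those of the adaptors Unc93b1 and Cnpy3. Unc93b1, the transporter that brings the receptors to endosomes, was at log2 11.21 and 11.30 in WT and at 11.21 and 11.24 in Id2 KO, a difference of -0.03 (95% interval -0.21 to 0.15; adjusted p = 0.88). Cnpy3, the folding cofactor, was at 10.07 and 10.11 in WT and at 10.08 and 10.13 in Id2 KO, with a difference of 0.01 (-0.17 to 0.19; adjusted p = 0.963). For both genes the groups overlapped. Ticam1, the adaptor through which Tlr3 signals, was at 8.08 and 8.24 in WT and at 8.30 and 8.25 in Id2 KO. Its groups did not overlap by a small margin, and the difference of 0.12 (-0.08 to 0.32) did not pass (adjusted p = 0.515). The interval of Ticam1 lay wholly above that of Tlr3, which ended at -0.53; the difference between the 2 genes was not tested.

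Over the 7 tested genes that did not pass, the intervals reached from -0.40 to 0.45 on the log2 scale, and the number of arrays limits this precision.

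**Figure D3:**
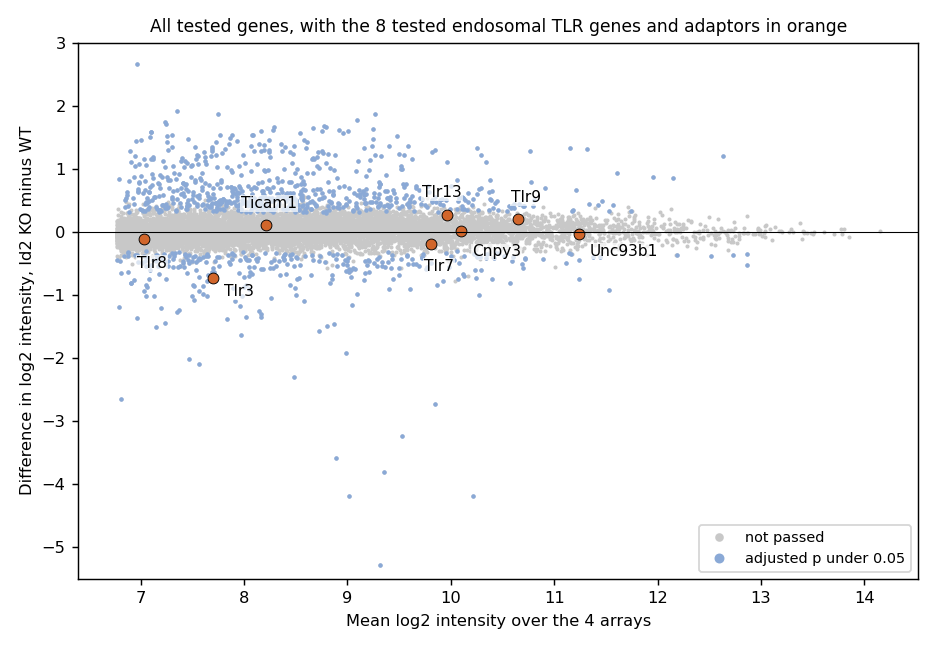
Difference in log2 intensity, Id2 KO minus WT, against the mean log2 intensity over the 4 arrays for the 11963 tested genes, with the 962 that passed in blue and the 8 tested endosomal TLR genes and adaptors in orange. Tlr3 lies among the lower blue points, and the other 7 lie in the grey band around 0.

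The remaining genes of the pathway were taken from 5 lists of receptor folding and traffic, endosomal proteases and nucleases, signalling adaptors and kinases, transcription factors and inhibitors. Of 76 listed genes 68 were measured and 65 tested; 3 were higher, none was lower and 62 did not pass, 4.62% beside the background of 8.04%. The absence of lower calls depended on the processing: without Id2 KO replicate 1 there were 3 higher and 3 lower, with renewed quantile normalization 1 and 1, and with the 60th percentile filter or with 16 added before log2 3 and 1. At an unadjusted p under 0.05 there were 13 of the 65, beside 20.7% of all tested genes. The median difference was 0.01, as over all tested genes, and the 95% interval of each of the 65 lay within 1 log2 unit of 0.

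Among the 14 tested genes of folding and traffic none passed, and the differences reached from -0.12 (Slc15a3) to 0.30 (Hsp90b1). Hsp90b1, the chaperone that folds TLRs with Cnpy3, was at log2 11.00 and 11.16 in WT and at 11.50 and 11.25 in Id2 KO (0.30, adjusted p = 0.139). The groups did not overlap, with Id2 KO replicate 2 close to the WT arrays. Slc15a4, an endosomal transporter needed for signalling by Tlr7 and Tlr9, was at 10.55 and 10.47 in WT and at 10.39 and 10.41 in Id2 KO (-0.11, adjusted p = 0.499). Of the 11 tested genes of endosomal proteolysis and of nucleic acid handling, Hmgb1 alone passed. Hmgb1, a DNA-binding protein that can carry nucleic acids to TLRs when released, was at 8.05 on both WT arrays and at 8.63 and 8.74 in Id2 KO, a rise of 0.63 (adjusted p = 0.00161) that passed with each array left out. Among the others the differences reached down to -0.23, for the exonuclease gene Pld3.

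Of the 20 tested adaptors and kinases 1 rose, Ticam2 (TRAM), the partner of Ticam1 in signalling by Tlr4. It was at log2 8.62 and 8.80 in WT and at 9.03 and 9.16 in Id2 KO (0.39, adjusted p = 0.0392), without overlap of the groups. Tlr4 itself was at 6.20 and 6.42 in WT and at 5.77 and 5.97 in Id2 KO, below the filter level, and was not tested. The call of Ticam2 was lost without WT replicate 1 (adjusted p = 0.296), without WT replicate 2 (adjusted p = 0.0523), without Id2 KO replicate 2 (adjusted p = 0.109), with renewed quantile normalization (adjusted p = 0.0725), with no filter (adjusted p = 0.0705) and with the replicate number as a block (adjusted p = 0.0568). Myd88, the adaptor of the other endosomal receptors, was at 10.21 and 10.38 in WT and at 10.44 and 10.42 in Id2 KO (0.14, adjusted p = 0.448). The interleukin-1 receptor-associated kinase gene Irak3, an inhibitor within this list, had the lowest difference, at -0.30, and did not pass.

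Of the 9 tested transcription factor genes 1 rose, the NF-κB subunit gene Relb, at log2 9.83 and 9.97 in WT and at 10.23 and 10.42 in Id2 KO (0.42, adjusted p = 0.0305). Its call was lost without WT replicate 1 (adjusted p = 0.233), without WT replicate 2 (adjusted p = 0.0623), without Id2 KO replicate 2 (adjusted p = 0.0939), with renewed quantile normalization (adjusted p = 0.0658) and with no filter (adjusted p = 0.0557). Irf7, the interferon regulatory factor downstream of Tlr7 and Tlr9, was at 10.97 and 10.98 in WT and at 10.84 and 10.50 in Id2 KO (-0.30, adjusted p = 0.162), with the Id2 KO arrays further apart than the group means. None of the 11 inhibitors passed (limma, 0 also at an unadjusted p under 0.05), and their differences lay between -0.18 (Tnfaip3) and 0.18 (Nfkbia).

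**Figure D4:**
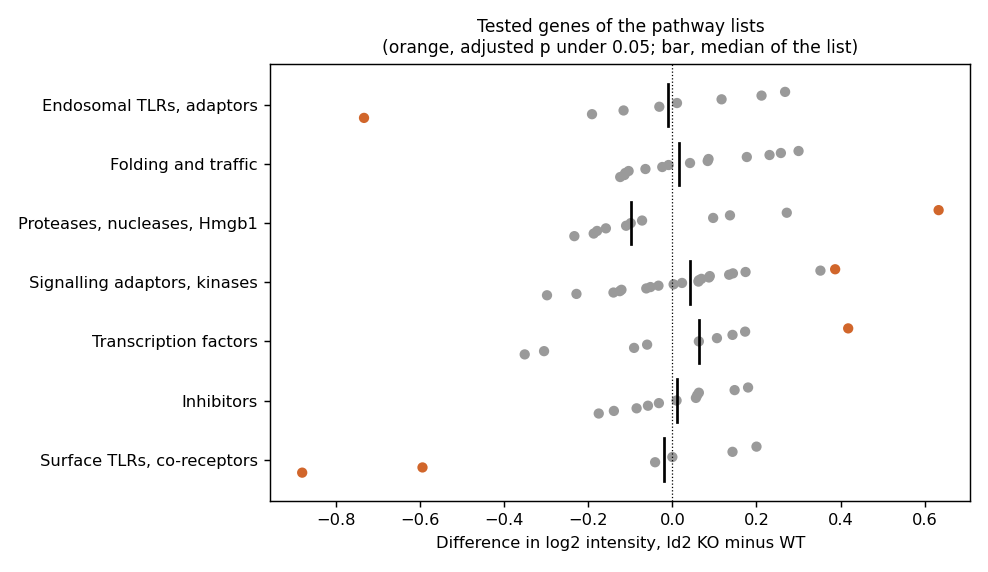
Differences in log2 intensity, Id2 KO minus WT, of the tested genes of each pathway list and of surface TLRs, 1 point per gene, with orange for an adjusted p under 0.05 and a bar at the median. The orange points are Tlr3, Hmgb1, Ticam2, Relb and, among surface receptors, Cd14 and Tlr2.

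Surface TLRs are given for comparison, and no test of the difference between the lists was made. Of 6 tested genes 2 were lower and 4 did not pass. Tlr2, a receptor for bacterial lipoproteins, fell by 0.59 (adjusted p = 0.0238) and Cd14, the coreceptor of Tlr4, fell by 0.88 (adjusted p = 0.00137). The call of Tlr2 was lost without WT replicate 1 (adjusted p = 0.0824), without WT replicate 2 (adjusted p = 0.123) and with the replicate number as a block (adjusted p = 0.0521). Monocytes and neutrophils carry both. Of 9 tested monocyte markers 4 were lower, Cd14 itself among them, and of 14 tested neutrophil markers 13 were lower and 1 higher. The summed neutrophil intensity was 19494 and 20268 in WT against 3467 and 4578 in Id2 KO. The tested monocyte markers had a median difference of -0.43 and reached from -2.02 (Chil3) to 0.1 (Cx3cr1). Their summed intensity was 13804 and 15070 in WT against 12655 and 12366 in Id2 KO. This sum was weighted towards Nr4a1, at log2 13.10 and 13.24 in WT and at 13.05 and 13.02 in Id2 KO, which did not pass. The part of these cells in the falls of Tlr2, Cd14 and Tlr3 was not tested. Among T and NK cell markers 1 of 6 was lower.

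**Figure D5:**
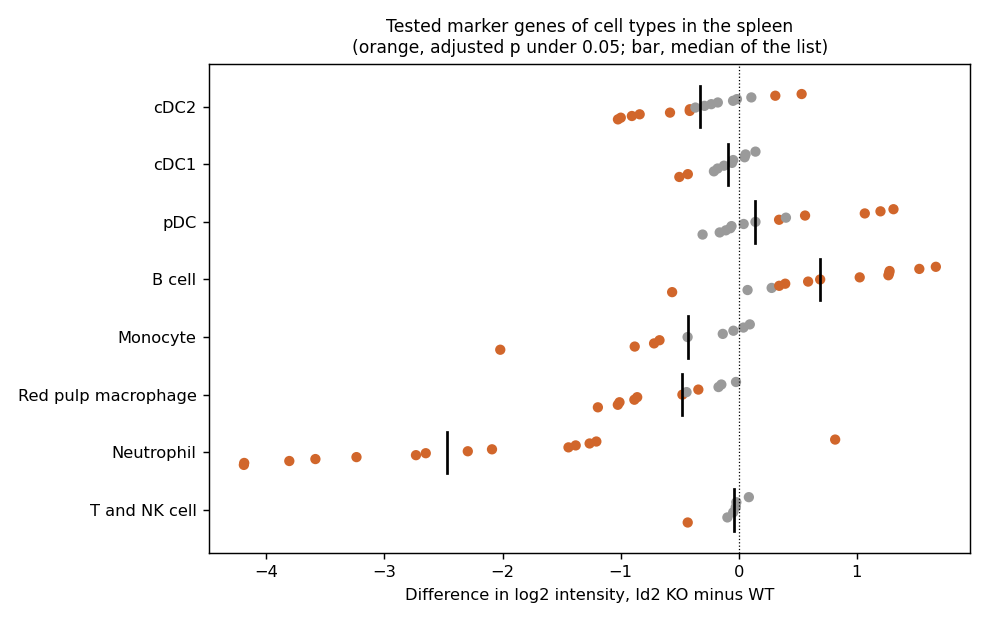
Differences in log2 intensity, Id2 KO minus WT, of the tested markers of 8 cell types, 1 point per gene, with orange for an adjusted p under 0.05 and a bar at the median. Neutrophil markers have a median of -2.47, red pulp macrophage markers of -0.48, cDC1 markers of -0.09 and B cell markers of 0.69.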

How the data were processed

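The deposited values were a linear intensity for each probe set, from 5.189 to 18624.246, for 4 arrays; median intensities were 128 to 134. Per the submitters' processing notes the authors used Affymetrix Expression Console and RMA, named without versions; RMA equalises the arrays, so shifts in total RNA per cell are largely removed. The genome build was not stated. Per the labels' protocols, biotinylated cDNA was made from amplified total RNA, which can compress levels.

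The log2 of each value was taken with no pseudocount. Of 28853 probe sets, 21789 had 1 gene symbol in the platform annotation, 1621 several and 5443 none listed; 21698 matched RefSeq by gene ID, which updated symbols. The brightest probe set per gene was kept, and genes above the 40th percentile of mean log2 intensity (6.77) were tested with limma 3.58.1 in R 4.3.3 (lmFit, eBayes); tests were two-sided, p-values were adjusted by Benjamini-Hochberg over all of them (threshold 0.05), and each gene had 2 residual and 6.77 prior degrees of freedom. Intervals are 95% and unadjusted. The procedure was tested on simulated data drawn with independent normal errors from the fitted spread. The assumptions of the test held there by design, so this does not check them in the real arrays. Levels of different probe sets were not compared as amounts of RNA. Summed intensities describe a list on each array and are weighted towards its brightest probe sets.

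The members and lists were chosen with earlier results of these data known. Named genes were all members, pathway and surface TLR genes past the threshold with Myd88, Irf7, Hsp90b1 and Slc15a4, cDC1 and pDC markers past it, and Id2, Xist and Kdm5d; others are named as the ends of a range, as examples or after their values were seen. Alternatives left out each array, changed the scaling, the filter, the summary of probe sets, the variance prior and the log offset, or added the replicate number as a block. Same-numbered arrays of the 2 groups deviated from their group means with a correlation of -0.14.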

Additional observations from a re-analysis of the deposited data

How the results depend on the processing

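Tlr3 was the 1 endosomal TLR gene that passed under each of the 12 alternatives, with differences from -0.81 to -0.65 and adjusted p from 0.000631 to 0.0114, and none of the other tested members passed under any of them. Signs turned at small values: with 1 array left out, Tlr8 ranged from -0.24 to 0.01 (above 0 without Id2 KO replicate 1), Unc93b1 from -0.07 to 0.01 (above 0 without WT replicate 2) and Cnpy3 from -0.01 to 0.03 (below 0 without WT replicate 1 and without Id2 KO replicate 2), and Cnpy3 was at -0.04 with renewed quantile normalization; a 60th percentile filter left Tlr8 untested. Pathway genes numbered between 1 and 6 with 1 array left out and 1 (Hmgb1) with no filter, where more genes were tested. Over all genes 459 to 1171 passed with 1 array left out, where the lone array of a group was assumed to vary like the other group. The replicate number as a block gave 1 member, 2 pathway genes and 684 genes in all; the numbers are not known to pair the arrays. The crossed block, chosen after seeing the data, gave 1 member, 7 pathway genes and 1380 genes. No background was measured beside the dim probe sets, which limits Tlr8 and Tlr12.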
